A study of Mus musculus with 52 samples.

Results

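The miRNAs described here are 32 mature arms from 16 hairpins at the proximal end of the imprinted Dlk1-Dio3 domain of the mouse. They were chosen by name, as every arm of miR-770, miR-673, miR-493, miR-337, miR-540, miR-665, miR-3070a, miR-3070b, miR-431, miR-433, miR-127, miR-434, miR-136, miR-341, miR-1188 and miR-370 among the 1900 mature miRNAs counted in each library. Small RNA of total hippocampal RNA was sequenced in 52 libraries from C57B/6JRj mice, all 20 weeks of age per the labels. The tissue was the CA region (cornu ammonis, the pyramidal cell fields) or the dentate gyrus (DG, the granule cell layer and its neurogenic niche), and the mice had spent 2 or 10 weeks in a home cage (HC) or in environmental enrichment (EE), where cages are larger and hold objects to explore. Groups are named by weeks, housing and region: each of the 4 home cage groups (2wHC_CA, 2wHC_DG, 10wHC_CA and 10wHC_DG) had 6 libraries, 2wEE_CA had 7, 2wEE_DG had 5, and 10wEE_CA and 10wEE_DG had 8 each. Nothing in the labels ties a library to an animal of its own, so p-values refer to the spread among libraries, some of which may be technical.

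In the Dlk1-Dio3 domain, protein-coding genes such as Dlk1, Rtl1 and Dio3 are expressed from the paternal chromosome, and the long non-coding RNAs Meg3, Rian and Mirg and the miRNAs from the maternal one. The miRNAs that lie opposite Rtl1, a gene derived from a retrotransposon, are fully complementary to its mRNA and can direct its cleavage in the mouse. A hairpin yields a 5p and a 3p arm. Often the arm taken up by Argonaute is kept and the other is degraded, and the seed, bases 2 to 8 of a mature arm, does most of the target pairing.

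Chromosome 12 carries all 16 hairpins on its plus strand (GRCm38, the same build as mm10). By the GENCODE annotation, the name "Rtl1 antisense" holds for 5 of them. The hairpins of miR-431, miR-433, miR-127, miR-434 and miR-136, from 109590447 to 109595388, lie opposite an exon of Rtl1, which spans 109589193 to 109600330 on the minus strand. Before Rtl1 lie 8 hairpins, of which miR-770 is in an exon of Meg3 (109541001 to 109571726) 6 overlap no other annotated gene, and miR-337 holds miR-3544 on its opposite strand (109585813 to 109585873). Past Rtl1, miR-341, miR-1188 and miR-370 lie in an intron of Rian (109603940 to 109661716). Other miRNA genes annotated between these hairpins are miR-432, which had 0 counts in all 52 libraries, miR-3544, miR-3071, which is made from the minus strand over miR-136, and Gm23912 (109618114 to 109618200), which was not analysed here.

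All 32 arms matched a RefSeq sequence by name (GRCm38.p6). The arms with the highest levels, and both arms of miR-431, which moved in opposite directions between the regions, are printed with the seed in capitals, so that their lack of shared seeds can be seen.
miR-127-3p: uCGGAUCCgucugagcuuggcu
miR-434-3p: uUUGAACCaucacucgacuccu
miR-434-5p: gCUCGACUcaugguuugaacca
miR-136-5p: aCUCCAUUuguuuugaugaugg
miR-136-3p: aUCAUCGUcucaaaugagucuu
miR-341-3p: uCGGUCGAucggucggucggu
miR-431-5p: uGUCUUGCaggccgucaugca
miR-431-3p: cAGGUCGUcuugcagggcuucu
No seed was shared between different hairpins, except by miR-3070a and miR-3070b. Their 3p arms share the seed GGUGCUA, and their 5p arms are the same sequence, so that a read of it aligns to both hairpins. Outside the locus or further along it, 3 arms share a seed with another RefSeq mouse miRNA: miR-370-5p with miR-1193-3p, miR-540-3p with miR-6915-5p and miR-673-5p with miR-6985-3p. Of these other miRNAs, miR-1193-3p averaged 24.5 CPM against 141 CPM for miR-370-5p, and miR-6915-5p and miR-6985-3p averaged 0.118 and 1.71 CPM.
The miR-3071 hairpin (109595318 to 109595397, minus strand) covers that of miR-136 (109595327 to 109595388). Whether reads were counted by strand is not given in the sources used here. Counts of miR-3071-3p were 14.3 to 23.7% of those of miR-136-5p over the 52 libraries, and counts of miR-3071-5p were 7.97 to 16.6% of those of miR-136-3p. Without strand the reads of both hairpins cannot be told apart, and the values of miR-136 are uncertain for this reason. The same holds for miR-337, to a smaller extent: miR-3544-5p overlaps 21 bases of miR-337-3p and had 0 to 12.7% of its counts (median 4.34%), and miR-3544-3p overlaps 17 bases of miR-337-5p and had 0 to 0.182% of its counts.

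Libraries held 480792 to 6706855 miRNA counts, with a median of 4189269 in CA and 2093319 in DG, and 3 counts, the limit that a count of 0 allows, were worth 0.437 to 5.48 CPM (counts scaled to the miRNA total of the library, with TMM factors). This limit covers counting error only. All 16 arms of a neuron-enriched marker list were detected in both regions. Library 3 of 10wEE_CA held the fewest counts and stood apart from the rest of its group. Of the 25 arms that passed the filter on low counts over all libraries, 19 were below all 7 other libraries of the group there and 5 were above them. The log2 ratio of this library to the median of the other 7 (0.5 CPM added to both) fell with the GC content of the arm, with r = -0.92 and rho = -0.89 over these 25 arms, as a description, since the arms share that library. miR-770-3p (72.7% GC) had 1.83 CPM there against 69.5 to 104 CPM in the others, and miR-136-5p (36.4% GC) had 6595 CPM against 2469 to 2799. The part of RNA quality or of amplification in this was not tested. Several results that this library moves are given with and without it. Where no value without it is given, the fits that hold CA libraries include it.

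**Figure D1:**
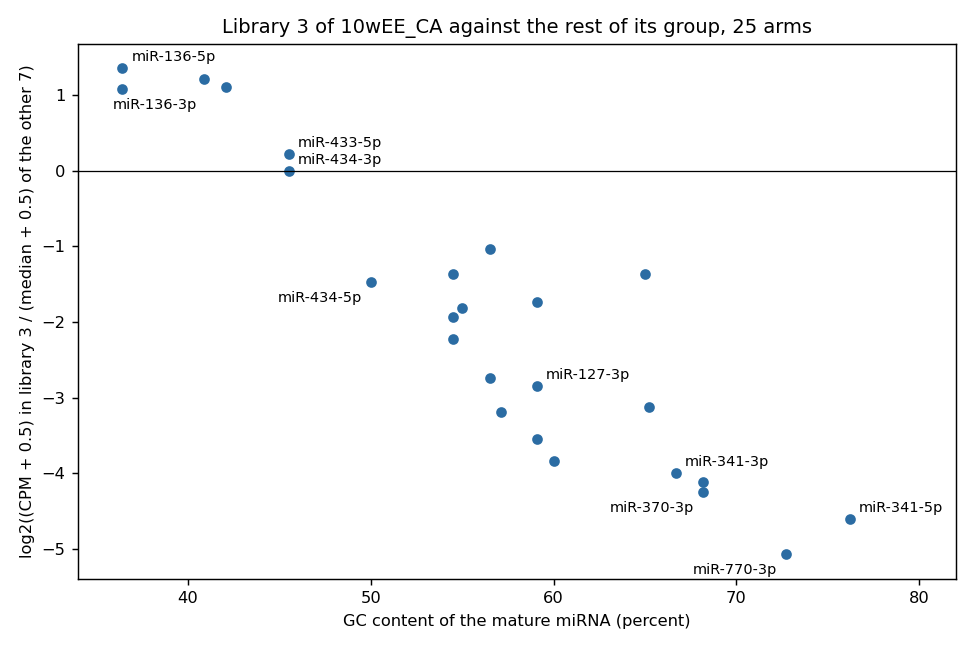
Each point is 1 of the 25 tested arms, with its GC content in percent on the x axis and the log2 ratio of its level in library 3 of 10wEE_CA to the median of the other 7 libraries of the group on the y axis. Arms poor in GC, such as miR-136-5p at 1.35, lie above 0, and arms rich in GC, such as miR-770-3p at -5.07, lie far below it.

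The hippocampal libraries gave a large share of their reads to these arms. Together they held 26.2 to 30.6% of the miRNA counts in 26 CA libraries (28.7% ± 1.05, SD), 12% in library 3 of 10wEE_CA, and 14.1 to 21.3% in the 25 DG libraries (18.6% ± 1.73). Nearly all of these reads came from the hairpins opposite Rtl1, which held 97.9 to 99.4% of them in each of the 52 libraries. The arms before Rtl1 held 0.392 to 0.759% and those in Rian 0.216 to 1.33%. miR-127-3p and miR-434-3p alone made up 87.3 to 95% of the reads of all 32 arms. These ranks and shares are among reads aligned to a single position, since reads aligned to several places, 59.3 to 71.0% of the deposited reads, entered no miRNA count.

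miR-127-3p had the highest mean level of all 1900 miRNAs, 172514 ± 49629 CPM (SD, n = 52), and miR-434-3p was the fourth, with 49835 ± 9325 CPM. Both are arms of hairpins complementary to Rtl1. The next were miR-434-5p (3588 ± 1035 CPM), miR-136-5p (2470 ± 729 CPM), miR-341-3p (2119 ± 591 CPM) and miR-136-3p (1432 ± 498 CPM). In this order, miR-136-5p and miR-341-3p were the neighbours whose means differed by less than either SD. Of the other arms, miR-493-3p was the lowest that passed the filter, with 2.86 ± 1.31 CPM and 0 counts in 2 libraries. The 7 arms that did not pass over all libraries were miR-665-5p, both arms of miR-1188, and all 4 arms of miR-3070a and miR-3070b. Their means ran from 0 CPM for miR-3070a-5p, which had 0 counts in all 52 libraries, to 1.35 CPM for miR-1188-5p. A full read of miR-3070a-5p also aligns to miR-3070b and so entered no count, so that its 0 does not measure its level.

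In each hairpin the arms differed in level, and the dominant arm was not always the same side. The 3p arm held 99.5% of the reads of miR-127 (median of 52 libraries), 99.6% of miR-341, 93.4% of miR-434 and 91.2% of miR-433. The 5p arm held most reads of miR-337, where the 3p median was 7.12%, of miR-493 (12.6%), of miR-673 (21.4%) and of miR-136 (36.4%). In miR-770 (55.4%) and miR-431 (64.1%) the arms were closer to each other.

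**Figure D2:**
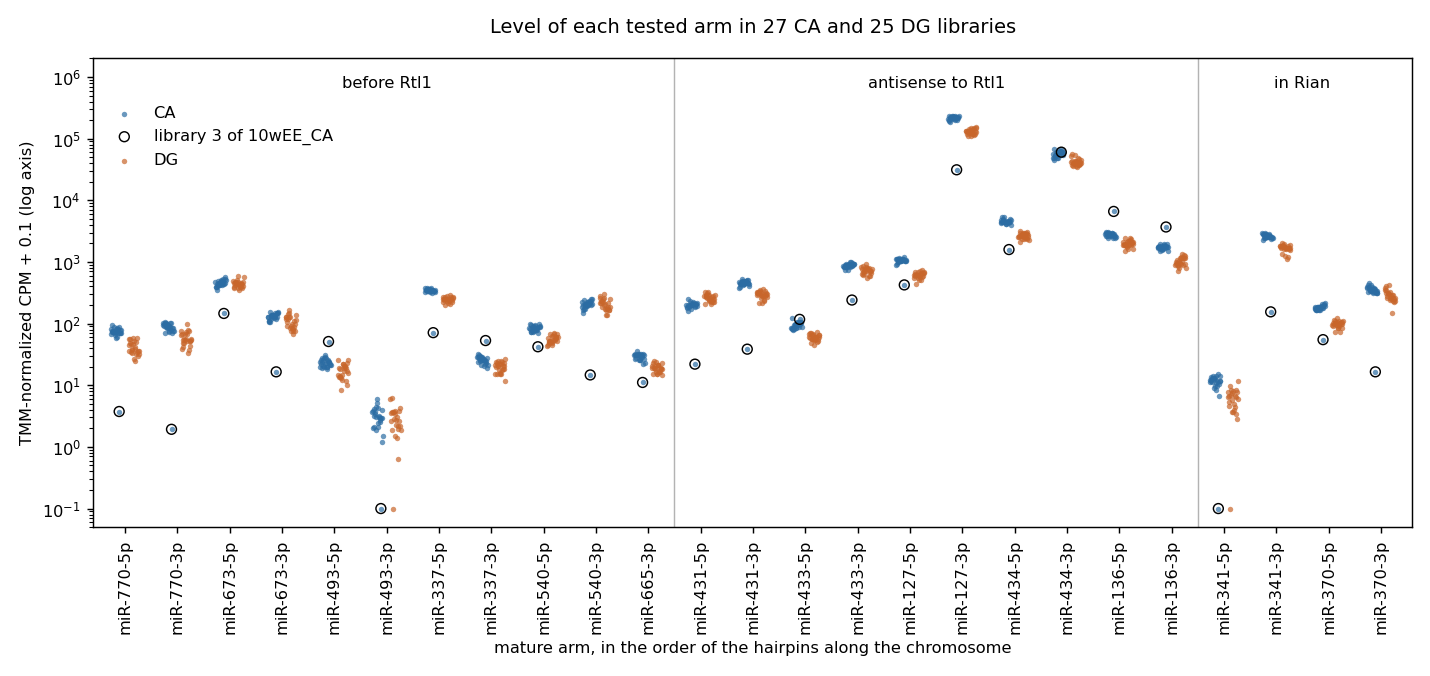
Level of each of the 25 tested arms, in chromosome order, in 27 CA libraries (blue) and 25 DG libraries (orange), as TMM-normalized CPM plus 0.1 on a log axis, with 1 point per library and a ring around library 3 of 10wEE_CA. The arms opposite Rtl1 reach the highest levels, and most arms lie lower in DG than in CA, with miR-431-5p the other way around.

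Most arms were lower in DG than in CA. With edgeR's quasi-likelihood test on all 52 libraries (mean of the 4 housing groups, adjusted p under 0.05 with Benjamini-Hochberg adjustment over 593 miRNAs), 21 of the 25 tested arms were lower in DG and 1, miR-431-5p, was higher. By comparison, 77.7% of all tested miRNAs were called, 41.7% as lower and 36.1% as higher. The median log2 fold change was -0.58 over the 25 arms and -0.04 over all 593. Of a list of 75 distal arms of the same domain, from miR-379 to miR-410, 61 were tested, 58 were lower in DG and 0 higher, with a median of -0.66. In bulk tissue, fewer cells of a type and less RNA per cell cannot be told apart.

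The level of miR-127-3p in CA was lowest at 31238 CPM in library 3 of 10wEE_CA, with a median of 219222 and a highest value of 236813 CPM. In DG it ran from 109202 over a median of 130835 to 155087 CPM. Without library 3 the CA values began at 187664 CPM, and the regions did not overlap. The log2 fold change of DG over CA was -0.69 ± 0.09 (SE, edgeR adjusted p = 1.75e-09).
miR-434-3p ran from 45453 over 58625 to 67835 CPM in CA and from 35225 over 41710 to 55465 CPM in DG, so that the regions overlapped while the medians differed. It was lower in DG by a log2 fold change of -0.42 ± 0.05 (edgeR adjusted p = 1.15e-11). Its other arm, miR-434-5p, ran from 1589 over 4441 to 5440 CPM in CA and from 2122 over 2611 to 3142 CPM in DG, with -0.75 ± 0.06 (edgeR adjusted p = 1.53e-15).
miR-136-3p was lowest at 1513 CPM in CA and highest at 1338 CPM in DG, with medians of 1735 and 1000 CPM, so that no library of either region reached the other. Its log2 fold change was -0.83 ± 0.06 (edgeR adjusted p = 8.02e-17), with the limit from miR-3071 given above. Without library 3 of 10wEE_CA the value was -0.74 ± 0.05.

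The arms with the smallest p-values were spread over all stretches of the locus. From opposite Rtl1 these were miR-433-5p (59.7 ± 7.02 CPM in DG, n = 25, against 95.2 ± 10.9 in CA, n = 27, log2 fold change -0.66), miR-127-5p (613 ± 69.1 against 1039 ± 139 CPM, -0.77), miR-434-5p and miR-136-3p. From Rian came miR-370-5p, with 98.7 ± 12.2 CPM in DG against 179 ± 28.0 in CA and a log2 fold change of -0.86. From before Rtl1 came miR-665-3p (18.9 ± 2.84 against 28.7 ± 4.76 CPM, -0.61) and miR-540-5p (56.0 ± 7.90 against 82.5 ± 11.2 CPM, -0.58). The edgeR adjusted p of these arms, with miR-434-3p as the last of the 8 in this order, ran from 1.55e-17 to 1.15e-11.
By stretch, 8 of 11 arms before Rtl1 were lower in DG (median log2 fold change -0.46), 9 of 10 opposite Rtl1 (-0.63) and 4 of 4 in Rian (-0.74). The calls of 2 of these arms were less firm: miR-370-3p (-0.27 ± 0.11) was called under 10 of 15 alternatives and miR-673-3p (-0.24 ± 0.09) under 13 of 15. Without library 3 of 10wEE_CA they had -0.27 ± 0.06 and -0.24 ± 0.06 (edgeR adjusted p = 2.51e-05 and 0.000124). The 3 arms that passed in neither direction were miR-673-5p (443 ± 57.5 CPM in DG and 445 ± 78.1 in CA), miR-540-3p (207 ± 41.8 and 200 ± 44.5 CPM) and miR-493-3p (2.78 ± 1.42 and 2.94 ± 1.22 CPM).
In all, every DG library was below every CA library for 3 of the 25 arms, miR-136-3p, miR-136-5p and miR-433-5p. That is 12% of the arms, against 7.25% of all 593 miRNAs. Without library 3 of 10wEE_CA it was 12 arms, or 48%, against 11.3% of all, and miR-127-3p was then among them.

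**Figure D3:**
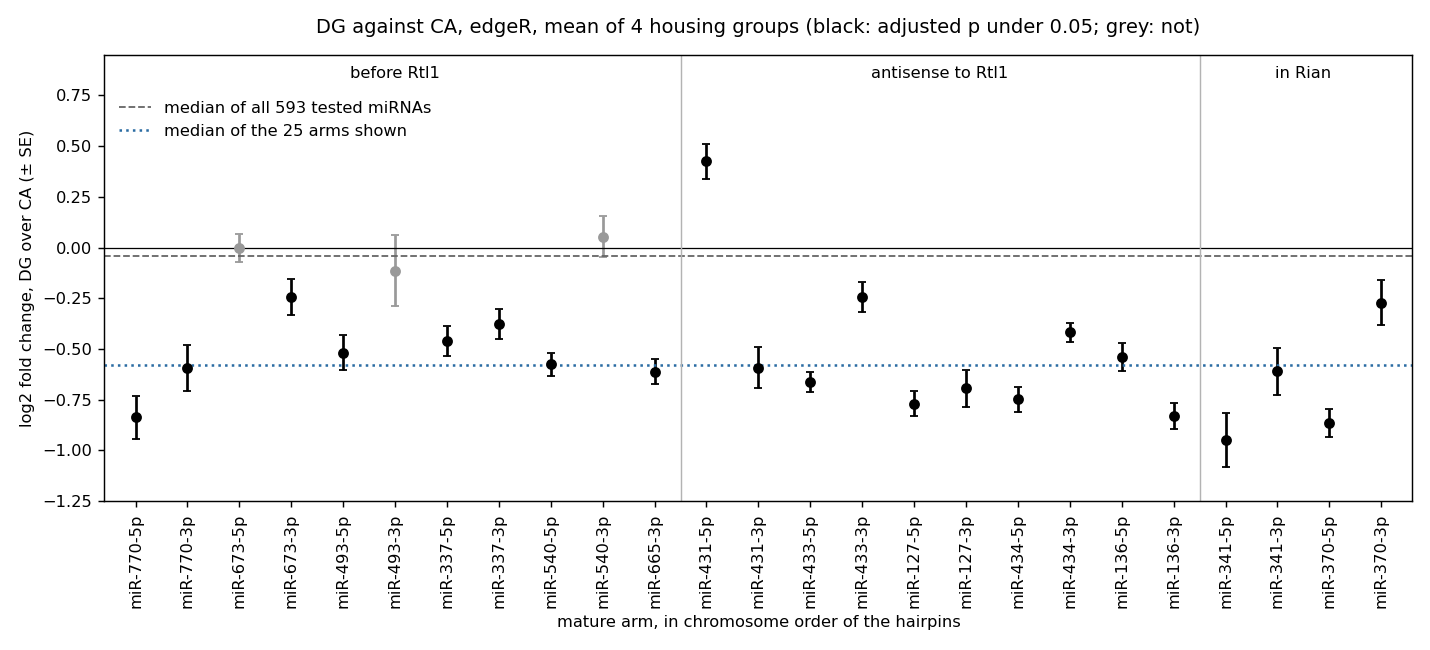
Log2 fold change of DG over CA (edgeR, all 52 libraries) for each of the 25 tested arms in chromosome order, with its SE as error bar. Black points passed an adjusted p of 0.05 and grey points did not; the dashed line is the median of all 593 tested miRNAs (-0.04), the dotted line that of the arms shown (-0.58), and miR-431-5p is the black point above 0, at 0.43.

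Within each of the 4 housing groups the direction was the same for most arms. DG was lower for 18 of 25 arms and higher for 1 in 2wHC, where 31.4% of all miRNAs were called lower and 28.3% higher. It was lower for 17 and higher for 1 in 2wEE (31.2% and 26.6% of all), lower for 17 and higher for 0 in 10wHC (27.8% and 21.9%, 49.7% in either direction), and lower for 16 and higher for 1 in 10wEE (33.2% and 25.1%). The arm called higher was miR-431-5p in each case, with log2 fold changes of 0.50 ± 0.18, 0.56 ± 0.18 and 0.48 ± 0.16. In 10wHC its value was 0.16 ± 0.18 (edgeR adjusted p = 0.462), and 0.20 ± 0.09 without library 3 of 10wEE_CA (edgeR adjusted p = 0.0589). For 10wEE, a fit on the libraries of that group alone called 10 of 24 arms as lower and 0 as higher. The share of all miRNAs called in that fit is not given here. Without library 3 of 10wEE_CA the fit on the other 51 libraries called 20 as lower and 1 as higher in 10wEE. In that fit 19 were lower and 2 higher in 2wHC, 17 and 2 in 2wEE, and 21 and 0 in 10wHC. Of all 594 miRNAs, 66.7% were called there in either direction in 2wHC, 63.1% in 2wEE, 57.1% in 10wHC and 62% in 10wEE. In the same order, 35.2%, 32.3%, 29.8% and 30.8% were called lower. The second arm called higher was miR-540-3p, with 0.37 ± 0.11 in 2wHC and 0.28 ± 0.12 in 2wEE (edgeR adjusted p = 0.00402 and 0.0305). In 10wHC miR-540-3p was called lower (-0.28 ± 0.11, edgeR adjusted p = 0.035).
Other scalings gave the same direction. With scaling factors taken from the miRNAs outside the list, 21 arms were lower and 1 higher. With library totals alone it was again 21 and 1, and with DESeq2 size factors 19 and 1. Of all 593 miRNAs, 41.7%, 39.5% and 36.8% were called lower under these scalings, in this order.
Markers of other cell types also had calls between the regions, as did 77.7% of all 593 miRNAs (41.7% lower and 36.1% higher). Of the oligodendrocyte list (miR-219a, miR-219b, miR-219c and miR-338), 4 of 5 tested arms were lower in DG and 1 higher, and the summed level of its 9 arms was 6226 to 11013 CPM in CA and 2196 to 3732 in DG. Of the choroid plexus and ependyma list, 7 of 9 tested arms were lower and 2 higher, with a summed level of 2840 to 9614 CPM in CA and 755 to 2219 in DG. Among its 15 arms, 2 were at 0 in CA and 3 in DG. Of the neuron-enriched list, 8 of 14 tested arms were higher and 2 lower in DG, and its 16 arms summed to 17731 to 28596 CPM in CA and 21583 to 34349 in DG. Of the erythrocyte list 3 of 5 were lower, of the microglia and leukocyte list 2 of 7 were lower, and of the vascular and mesenchymal list 1 of 5 was higher. From the hindbrain list 1 of 2 was higher, and from the sensory and pineal list 0 of 3 were called. The part of these cells in the lower levels of the locus was not tested.

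Of the 12 hairpins with both arms tested, miR-431 was the 1 with an arm called lower and an arm called higher in DG over the mean of the 4 housing groups. In neurons of the mouse, miR-431 is known to target Kremen1, an antagonist of Wnt signalling. miR-431-5p ran from 21.9 CPM in library 3 of 10wEE_CA over a median of 203 to 246 CPM in CA, and from 206 over 259 to 328 CPM in DG. Without library 3 the lowest CA value was 160 CPM, so that the regions overlapped between 206 and 246 CPM. Its log2 fold change of DG over CA was 0.43 ± 0.09 (SE, edgeR adjusted p = 1.99e-05), and it was called in all 15 alternatives and in all 52 fits that left out a library.
miR-431-3p ran from 38.4 over 449 to 530 CPM in CA and from 216 over 301 to 358 CPM in DG. Without library 3 the lowest CA value was 380 CPM, above all DG libraries. It was lower in DG, with -0.59 ± 0.10 (edgeR adjusted p = 7.95e-07).
The share of the 3p arm in the reads of the hairpin does not depend on library scaling. It was 63.6 to 74.2% in the 27 CA libraries (median 69.1%) and 42.4 to 63.4% in the 25 DG libraries (median 52.6%), so that no DG library reached the lowest CA library. That lowest CA library was library 3 of 10wEE_CA, and the other 26 began at 64.6%. In 2wEE_DG the shares were 55.8, 51.5, 54.6, 44.5 and 52%. In 2wHC_DG they ran from 42.4 over 52.8 to 57.9%, in 10wHC_DG from 48.2 over 53.2 to 63.4%, and in 10wEE_DG from 47.8 over 53.9 to 58.6%. In CA the group medians were 68.9% in 2wHC, 69.2% in 2wEE, 69.1% in 10wHC and 69.6% in 10wEE.
The reads behind these shares were 71766 in CA and 28676 in DG. Summed over both arms, the hairpin had 638 CPM in CA and 557 in DG, as means over libraries.

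**Figure D4:**
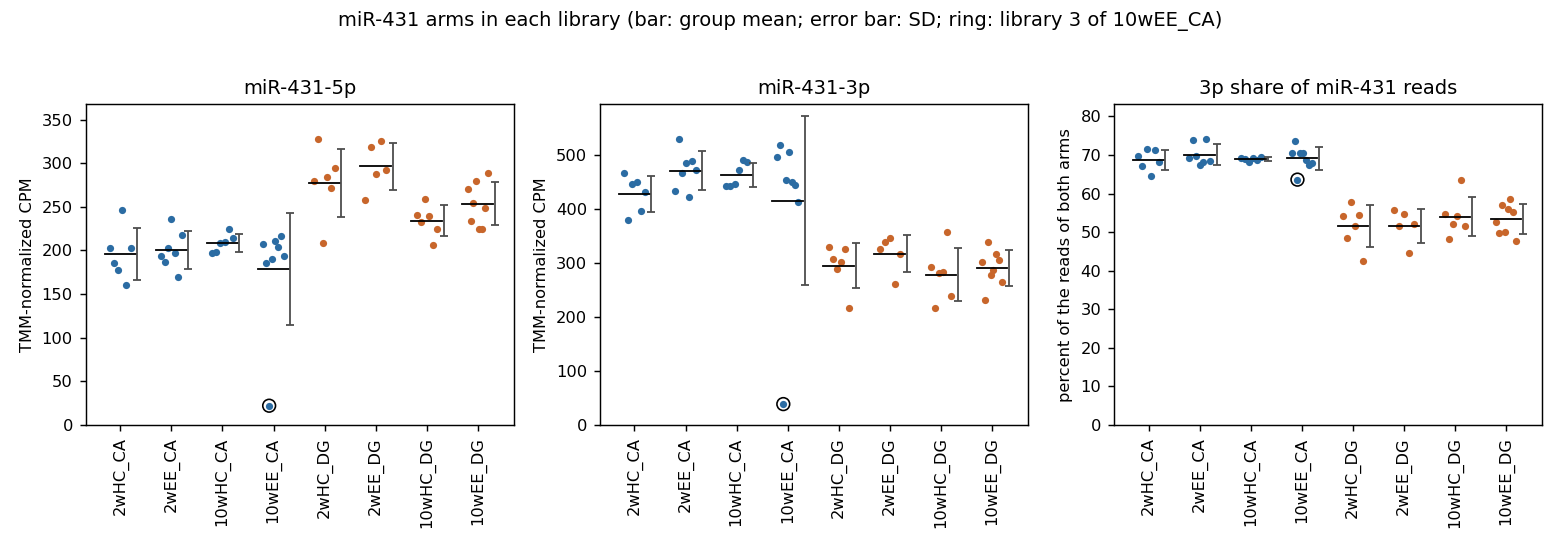
Each point is a library: the left and middle panels give miR-431-5p and miR-431-3p in TMM-normalized CPM, and the right panel the 3p share of the reads of both arms in percent, for the 8 groups (CA blue, DG orange). Bars are group means and error bars the SD; the ring marks library 3 of 10wEE_CA, and the right panel shows CA between 63.6 and 74.2% and DG between 42.4 and 63.4%.

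The same question was put to all hairpins with both arms above the filter, as the log2 ratio of the 3p to the 5p count (0.5 added to both) in limma. Of 176 hairpins, 54.5% were called between the regions, 29.5% with a higher and 25% with a lower 3p share in DG. Of the 12 hairpins of the locus tested, 9 were called, 6 with a higher and 3 with a lower 3p share. miR-431 had the smallest p of all 176 hairpins and the fifth largest difference, -1.02 ± 0.07 (SE, limma adjusted p = 6.59e-18). Over the 6 alternatives its value ran from -1.05 to -1.01, with adjusted p from 3.84e-19 to 1.31e-11.
The other hairpins with a lower 3p share in DG were miR-136, with a median of 33.8% against 38.5% in CA and a difference of -0.30 ± 0.04, and miR-673, with 19.6% against 22.4% and -0.21 ± 0.08. A higher 3p share in DG was found for miR-540 (78.2% against 71.8%, a difference of 0.70 ± 0.13) and for miR-370 (74.0% against 65.8%, 0.65 ± 0.11). It was also found for miR-433 (92.5% against 90.3%, 0.44 ± 0.10), miR-434 (93.9% against 92.6%, 0.31 ± 0.08) and miR-770 (58.9% against 54.2%, 0.27 ± 0.08). The ninth, miR-341, whose 5p arm had 0 counts in 2 libraries, had a difference of 0.43 ± 0.16 (limma adjusted p = 0.0245). The limma adjusted p of the 8 named before it ran from 6.59e-18 to 0.0168. All of these differences are means over the 4 housing groups. In 2wHC and 10wHC, the median 3p shares in DG against CA were 82.3% against 69.5% and 74.3% against 71.5% for miR-540. For miR-673 they were 20% against 22.3% and 17.2% against 21.7%. For miR-770 they were 54.9% in both regions and 60.2% against 54.2%, and for miR-136 32.6% against 37.4% and 35.3% against 39%. Whether the region difference itself differs between these groups was not tested.
In miR-540 and miR-370 the 5p arm was lower in DG by -0.58 and -0.86 on the log2 scale. Of their 3p arms, miR-540-3p had 0.05 ± 0.10, which did not pass, and miR-370-3p was lower, with -0.27 ± 0.11 (edgeR adjusted p = 0.0219). Without library 3 of 10wEE_CA, the differences of miR-540 and miR-370 were 0.61 and 0.57.

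Enrichment was compared with the home cage within each region and time, and none of the arms passed the threshold. With edgeR, 0 of 26 tested arms were called in CA at 2 weeks, where 0% of 581 miRNAs were called, and 0 of 26 at 10 weeks (also 0% of 581). Without library 3 of 10wEE_CA it was again 0 of 26 arms at both times, while 9 of 580 miRNAs (1.55%) were called at 2 weeks and 3 (0.517%) at 10 weeks. In DG it was 0 of 24 at 2 weeks, against 0.571% of 525 miRNAs, and 0 of 24 at 10 weeks, against 0.381%. At an unadjusted p under 0.05 the counts were 0, 0, 1 and 0 in this order, and DESeq2 and limma voom likewise called 0 arms in each. Over all miRNAs, 35 of 581, 30 of 581, 29 of 525 and 29 of 525 passed the unadjusted cut. Without library 3 the unadjusted counts of arms in CA were 1 and 2, and those over all miRNAs were not made.
The median log2 fold changes of the arms were 0.00 and -0.09 in CA and 0.06 and 0.04 in DG, beside 0.00, 0.00, -0.01 and 0.00 over all tested miRNAs. In CA at 10 weeks 21 of 26 arms had a negative value, and without library 3 of 10wEE_CA the median was -0.02 and 15 of 26 were negative. Single values ran from -0.18 to 0.32 in CA at 2 weeks, from -0.28 to 0.29 at 10 weeks (from -0.22 to 0.32 without library 3), from -0.43 to 0.46 in DG at 2 weeks and from -0.18 to 0.44 at 10 weeks.
For miR-127-3p, the most abundant arm, the log2 fold change in DG was 0.09 ± 0.09 (SE) at 2 weeks and 0.09 ± 0.08 at 10 weeks. In CA it was 0.07 ± 0.22 at 2 weeks and -0.16 ± 0.21 at 10 weeks, in a fit that includes library 3 of 10wEE_CA. Without that library the values were 0.07 ± 0.06 and 0.01 ± 0.06. The 5 libraries of 2wEE_DG had 144129, 125033, 135136, 126090 and 136336 CPM of miR-127-3p, and the 6 of 2wHC_DG ran from 109202 over 130021 to 134610 CPM, so that 3 enriched libraries lay above all controls.
For miR-434-3p the values were -0.02 ± 0.07 and -0.02 ± 0.07 in CA and -0.08 ± 0.11 and -0.02 ± 0.10 in DG. miR-434-5p, miR-136-5p and miR-341-3p had -0.02, -0.04 and 0.01 in CA at 2 weeks and -0.01, -0.05 and 0.07 in DG at 2 weeks. At 10 weeks they had -0.10, 0.19 and -0.28 in CA and -0.02, -0.01 and 0.12 in DG. Without library 3 the CA values at 10 weeks were 0.02 ± 0.05 for miR-434-5p, -0.10 ± 0.04 for miR-136-5p and -0.10 ± 0.05 for miR-341-3p (SE, edgeR adjusted p = 0.956, 0.428 and 0.644), so that the first and second turned sign. For miR-136-5p, 4 of the 8 enriched libraries lay below all 6 controls and 1, library 3, above them. For miR-341-3p, 7 of the 8 lay below all 6 controls, library 3 among them.

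The arm with the smallest p of all of these was miR-673-3p in DG at 2 weeks. Its 5 enriched libraries had 141, 146, 167, 129 and 126 CPM, and the 6 home cage libraries ran from 91.5 over 118 to 130 CPM, so that 3 of 5 lay above all controls. The log2 fold change was 0.31 ± 0.15 (SE, edgeR adjusted p = 0.830). Over the alternatives the adjusted p, by edgeR, DESeq2 or limma, ran from 0.615 to 0.861. In CA at 2 weeks the same arm had 119 over 136 to 152 CPM in the 7 enriched libraries and 108 over 111 to 127 CPM in the 6 controls, and 6 of 7 lay above all controls. Its log2 fold change there was 0.21 ± 0.19 (edgeR adjusted p = 0.999), and 0.20 ± 0.07 without library 3 of 10wEE_CA (adjusted p = 0.196, edgeR). In CA at 10 weeks 5 of 8 enriched libraries lay above all controls and 2 below, with -0.05 ± 0.19, or 0.08 ± 0.07 without library 3. At 10 weeks in DG miR-673-3p had 0.22 ± 0.13 (edgeR adjusted p = 0.935).
In the other direction, miR-493-5p had 14.1, 8.12, 12.9, 14.5 and 12.1 CPM in 2wEE_DG against 13.4 to 25.4 CPM in 2wHC_DG (median 16.5), with counts of only 13 to 44 behind these values. Its log2 fold change was -0.43 ± 0.22 (edgeR adjusted p = 0.970), and -0.18 ± 0.18 at 10 weeks (adjusted p = 0.935).
In CA, the smallest p-values in each direction were those of miR-493-3p (0.32 ± 0.25) and miR-337-3p (-0.14 ± 0.13) at 2 weeks and of miR-770-3p (-0.24 ± 0.21) and miR-136-3p (0.17 ± 0.15) at 10 weeks, with edgeR adjusted p of 0.999, 0.999, 0.848 and 0.848. The value of miR-136-3p rests on library 3 of 10wEE_CA: without it the log2 fold change was -0.05, and that of miR-770-3p was -0.12.
The 3p to 5p ratios did not pass in any of the 4 comparisons either: limma called 0 of the hairpins of the locus and 0% of the 176 tested in CA and of the 154 tested in DG.
The difference of the enrichment effect between 10 and 2 weeks was called for 0 of 26 arms in CA and 0 of 24 in DG, and that between DG and CA for 0 of 25 arms at 2 weeks and 0 of 25 at 10 weeks (edgeR, 0% of all miRNAs in each). At an unadjusted p under 0.05 the counts of arms were 0, 0, 1 and 0, beside 13 of 581, 21 of 525, 17 of 593 and 25 of 593 miRNAs. The 1 arm was miR-493-5p, whose effect in DG minus that in CA at 2 weeks was -0.55 ± 0.26 (edgeR adjusted p = 0.999). In each direction, the smallest p-values in the others were those of miR-493-3p (-0.57 ± 0.37) and miR-136-3p (0.23 ± 0.21) over time in CA, and of miR-540-5p (-0.19 ± 0.15) and miR-433-5p (0.16 ± 0.15) over time in DG. Between regions they were those of miR-540-5p (0.21 ± 0.17) beside miR-493-5p at 2 weeks, and of miR-493-5p (-0.36 ± 0.22) and miR-431-5p (0.31 ± 0.24) at 10 weeks. The edgeR adjusted p of these ran from 0.985 to 0.999. Without library 3 of 10wEE_CA, 0 arms were again called, and the value of miR-136-3p over time in CA was 0.02, that of miR-431-5p at 10 weeks 0.20 and that of miR-493-5p at 10 weeks -0.25.

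The labels give 20 weeks of age to both the 10 week and the 2 week home cage groups, which are separate controls and not a time course. Weeks in the cage cannot be told apart from other differences between these sets of libraries. Between the home cage groups of 10 and 2 weeks, the DG libraries differed in 84 of 525 miRNAs, or 16%, with 8.38% lower and 7.62% higher at 10 weeks (edgeR). With library totals alone 68 were called, 23 of them lower, against 44 of 84. Of the 24 arms tested, 3 were lower at 10 weeks and 0 higher. It was 1 arm with library totals alone, and also without library 1 or 2 of 2wHC_DG or library 6 of 10wHC_DG. Beside the median of -0.08 over the arms, that over all miRNAs was 0.00 (15 of 24 arms negative), and of the distal list 3 of 58 arms were higher and 3 lower. Reads outside any miRNA also differed between these groups, with 5.07 to 6.34% of reads in 10wHC_DG and 3.89 to 4.45% in 2wHC_DG. The same direction, without overlap, held for the CA home cage groups (4.28 to 4.78% at 10 weeks against 3.37 to 3.91%). It also held for the enriched groups of CA (4.39 to 4.77% against 3.52 to 3.96%) and of DG (4.88 to 5.62% against 3.81 to 4.33%). The part of this in the result was not tested.
miR-540-3p ran from 212 over 229 to 280 CPM in 2wHC_DG and from 139 over 170 to 209 CPM in 10wHC_DG, without overlap. It was lower by a log2 fold change of -0.48 ± 0.13 (SE, edgeR adjusted p = 0.0153), and it was called under all 10 alternatives and in each of the 25 fits that left out a library. Its partner miR-540-5p had 49.4 ± 5.69 CPM at 2 weeks and 60.3 ± 9.99 at 10 weeks (0.28 ± 0.11, edgeR adjusted p = 0.0869).
miR-673-3p ran from 91.5 over 118 to 130 CPM at 2 weeks and from 68.9 over 84.3 to 98.1 CPM at 10 weeks, with some overlap (-0.46 ± 0.14, edgeR adjusted p = 0.0287). miR-370-3p ran from 258 over 351 to 404 CPM at 2 weeks and from 148 over 254 to 329 CPM at 10 weeks, which overlapped more widely (-0.45 ± 0.14, edgeR adjusted p = 0.0301).
These 3 arms have 60 to 68.2% GC, and over the 24 arms the fold change had r = -0.42 with GC content, as a description (over 463 miRNAs with a sequence, r = -0.28). With the trend on GC content taken out of each library, miR-673-3p had -0.26 (adjusted p = 0.218) and miR-370-3p -0.23 (adjusted p = 0.202), and miR-540-3p was still called lower (-0.34, adjusted p = 0.0390, all edgeR). In that fit miR-540-5p was called higher (0.38, edgeR adjusted p = 0.0390), 8 of 24 arms were negative, and the median of the arms turned to 0.05.
In CA, 0 of 26 arms were called between these groups, as were 0% of all 581 miRNAs. Without library 3 of 10wEE_CA, which is in the fit but in neither group, it was 0 of 26 arms and 12 of 580 miRNAs (2.07%). At an unadjusted p under 0.05 the arms went from 1 to 7 (edgeR). Of all miRNAs, 35 of 581 passed that cut with library 3. Without it they were not counted, so the 7 arms have no share over all miRNAs beside them. In each direction, the smallest p-values were those of miR-434-3p (0.17 ± 0.08, edgeR adjusted p = 0.695) and miR-337-3p (-0.24 ± 0.14, adjusted p = 0.763). miR-540-3p, miR-673-3p and miR-370-3p had 0.20 ± 0.25, 0.17 ± 0.20 and -0.15 ± 0.27 there, and 0.19 ± 0.09, 0.16 ± 0.07 and -0.16 ± 0.07 without that library (edgeR adjusted p from 0.223 to 0.267). Whether the difference between these home cage groups itself differs between DG and CA was not tested.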

How the data were processed

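Small RNA was measured in 52 hippocampal libraries. Per the labels' protocols, TruSeq libraries were made from total RNA (Tri reagent) of microdissected, frozen CA and DG. Each deposited table gives raw counts of reads for mature miRNAs, made by the authors with CASAVA 1.8.2, cutadapt, STAR and HTSeq on mm10, per the submitters' processing notes; the sources used here give no version of the last 3, no miRNA annotation and no strand setting. The 5 closing rows were dropped, of which reads aligned to several places held 59.3 to 71.0%, reads outside any miRNA 3.37 to 6.34% and ambiguous reads 0.185 to 0.527%.

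Groups come from the titles. Tests used edgeR 4.0.16 in R 4.3.3 (quasi-likelihood, TMM, filterByExpr with a minimum count of 10, no covariate) on the 27 CA, the 25 DG or all 52 libraries, and limma 3.58.1 for the log2 ratio of arms. All p-values are two-sided and adjusted over all miRNAs or hairpins of a comparison. Scripts were tested on simulated data. Alternatives were DESeq2 1.42.0, limma voom, other scalings and filters, a replicate block, left-out libraries and, chosen after seeing the data, a GC offset (a loess trend on GC content removed in each library).

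The members and lists were chosen with earlier results of these data known. Named arms are the 6 with the highest mean, up to 8 called per comparison by smallest p (or, with none called, the smallest p in each direction), up to 8 called hairpins and the lowest arm that passed. Others are given as counts, or were chosen after their values were seen: miR-431-3p, miR-341 as the ninth hairpin, and the arms set beside a named partner.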

Additional observations from a re-analysis of the deposited data

Results flagged for a closer look

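In groups of 4 to 10 libraries, a highest or lowest value was marked where its gap to the next library, divided by the range of the group, was above Dixon's 95% critical value. This was applied to 15 measures in 8 groups, 120 in all: the levels of the 6 most abundant arms, the summed share of all 32 arms and the arm ratios of 8 hairpins. Chance marks about 1 in 20 groups, and 17 were marked here.

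Of these, 12 were library 3 of 10wEE_CA. It was the lowest of its group for miR-127-3p (31238 CPM), miR-434-5p (1589 CPM), miR-341-3p (155 CPM) and the summed share of the 32 arms (12% of miRNA counts), and the highest for miR-136-5p (6595 CPM) and miR-136-3p (3689 CPM). Its log2 ratio of 3p to 5p counts was the lowest for miR-370 (-1.68), miR-540 (-1.47), miR-433 (1.04), miR-770 (-0.74) and miR-673 (-3.08), and the highest for miR-434 (5.25).

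The other 5 were spread over 5 libraries. miR-434-5p was high in library 3 of 2wEE_CA (5440 CPM, the others 4429 to 4803). The summed share was low in library 6 of 2wHC_DG (14.1%, the others 17.8 to 19.6%). The log2 ratio of 3p to 5p counts was high for miR-136 in library 3 of 2wEE_DG (-0.85), high for miR-433 in library 1 of 2wEE_CA (3.45) and low for miR-770 in library 1 of 2wEE_DG (0.05).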

How the results depend on the processing

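In the 4 comparisons of enrichment, the 4 differences between them and the home cage comparison in CA, 0 arms were called under every alternative run and with any library left out. DG against CA had 20 to 22 called arms when each library was left out (14 to 21 within single housing groups); within 10wEE, the fit on that group alone gave 10 in place of 17. The 3 arms called between the home cage groups in DG became 1 with library totals alone or with no filter on low counts, and leaving out single libraries gave 1 to 4 (over all miRNAs 48 to 91 beside 84, and 51 with no filter or 55 with only these groups), with 1 left without library 1 or 2 of 2wHC_DG or library 6 of 10wHC_DG. The log2 fold change of miR-136-3p for enrichment in CA at 10 weeks changed sign without library 3 of 10wEE_CA (-0.05; -0.05 with DESeq2 size factors, -0.07 with library totals, -0.06 with scaling on other miRNAs, -0.03 with the replicate block and -0.04 with the GC offset) and with the GC offset alone (-0.07), as did its difference between times (-0.04 with the GC offset). The cause was not tested. Depth limits the arms under about 10 CPM.

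The labels do not say that the numbers in the titles pair libraries, and the main tests did not pair them. Deviations from the group means had a correlation over 0.1 in 8 of 25 same-numbered pairs of CA and DG libraries (r from -0.211 to 0.333). Of these, 5 were among the 6 pairs of 2wHC. HC and EE libraries had it in 9 of 23 pairs (r from -0.289 to 0.268). This cannot exclude that CA and DG libraries came from the same mice, since pairs with different numbers were not compared. With the replicate block, 19 arms were lower and 1 higher in DG than in CA, where 38.9% of 592 miRNAs were called lower. Between the DG home cage groups it called 4 arms, beside 85 of 525 miRNAs, and for enrichment 0 arms.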
